A study of Drosophila melanogaster with 9 samples.

Results

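The genes examined encode 4 families of antibacterial peptides of Drosophila melanogaster: the Attacins AttA, AttC and AttD, the Cecropins CecA1, CecA2, CecB and CecC, the Diptericins DptA and DptB, and Drosocin (Dro). They were chosen by name and family, and their transcript rows were summed per gene symbol. They are 10 of 17187 genes or unnamed entries in the count tables. All 10 had at least 1 read in some library, and 8 passed the filter on low counts and were tested. CecA2 and Dro did not pass it and are described by their reads.

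Insects answer bacterial infection with short secreted peptides that damage or enter bacterial cells. In Drosophila most of these genes are switched on through the immune deficiency (IMD) pathway, in which receptors of the PGRP family bind bacterial peptidoglycan and a relay of imd, Fadd, Dredd and Tak1 releases the NF-kappaB factor Relish. The larval fat body, a counterpart of liver and adipose tissue, is the main source of the peptides in systemic infection, while gut and other linings make them locally. Attacins and Diptericins are glycine-rich, Cecropins form membrane-active helices, and Drosocin is proline-rich.

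RNA came from whole larvae grown at 28 °C, with 3 libraries per genotype and 20 pooled larvae per library. The control genotype was w1118, a standard strain with white eyes. hopTum is known as an activated form of hopscotch (hop), which encodes the JAK kinase of flies. tuSz1 is a melanotic strain, known to combine an activated hop with loss of GCS1, an enzyme gene of N-glycan processing, and to encapsulate its own fat body. The series title names lost tolerance of self and activation of the IMD pathway as its subjects. The labels give no sex, age in days or further alleles, so a difference between strains cannot be credited to the named allele alone. In whole-larva RNA, fewer cells of a type and less RNA per cell cannot be told apart.

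Total counts ran from 9552828 to 14517286 per library. Values below are CPM, read counts scaled to library sizes adjusted by TMM, where 3 counts, the floor used for a gene at 0, equal 0.2 to 0.357 CPM. This floor covers counting error only. The hop gene had 144 ± 12.1 CPM in w1118 (mean ± SD, n = 3, as below), 333 ± 151 in hopTum and 177 ± 13 in tuSz1. The hopTum libraries were uneven, at 479, 178 and 341 CPM of hop, and replicate 2 lay within the tuSz1 range of 168 to 192. GCS1 was listed at 0 in all libraries, and counts cannot show which allele a library carries. In glue level tuSz1 replicate 3 stood apart: the 6 salivary glue genes, a marker of larval stage, summed to 33.1 CPM there, against 56005 and 57417 in its fellow replicates. Summed glue levels were 47651 to 61529 CPM in w1118 and 12413 to 16524 in hopTum. Markers of the fat body also differed, with 11817 to 23208 CPM summed over 7 genes in w1118, 22033 to 78749 in hopTum and 74215 to 194611 in tuSz1. Nearly all of that sum was the larval serum protein genes Lsp1alpha and Lsp1gamma, and its hopTum range reached into that of w1118. Against w1118, hopTum had more Lsp1gamma (log2 fold change 2.16, adjusted p = 0.0188, edgeR). Lsp1alpha, at 0.07, and apolpp, at -0.25, did not pass there. For tuSz1 the log2 fold changes from w1118 were 3.25 for Lsp1gamma, 2.67 for Lsp1alpha and 0.95 for apolpp. Of these, Lsp1alpha did not pass (adjusted p = 0.107, edgeR). Fbp1 was listed at 0 in all libraries, and Lsp1beta, Lsp2 and Fbp2 were listed at or near 0. The part of larval stage and of fat body content in the results below was not tested. Fits with the glue genes as a covariate or without tuSz1 replicate 3 are given for some genes. They cannot separate larval stage from genotype, since w1118 and hopTum did not overlap in summed glue level.

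**Figure D1:**
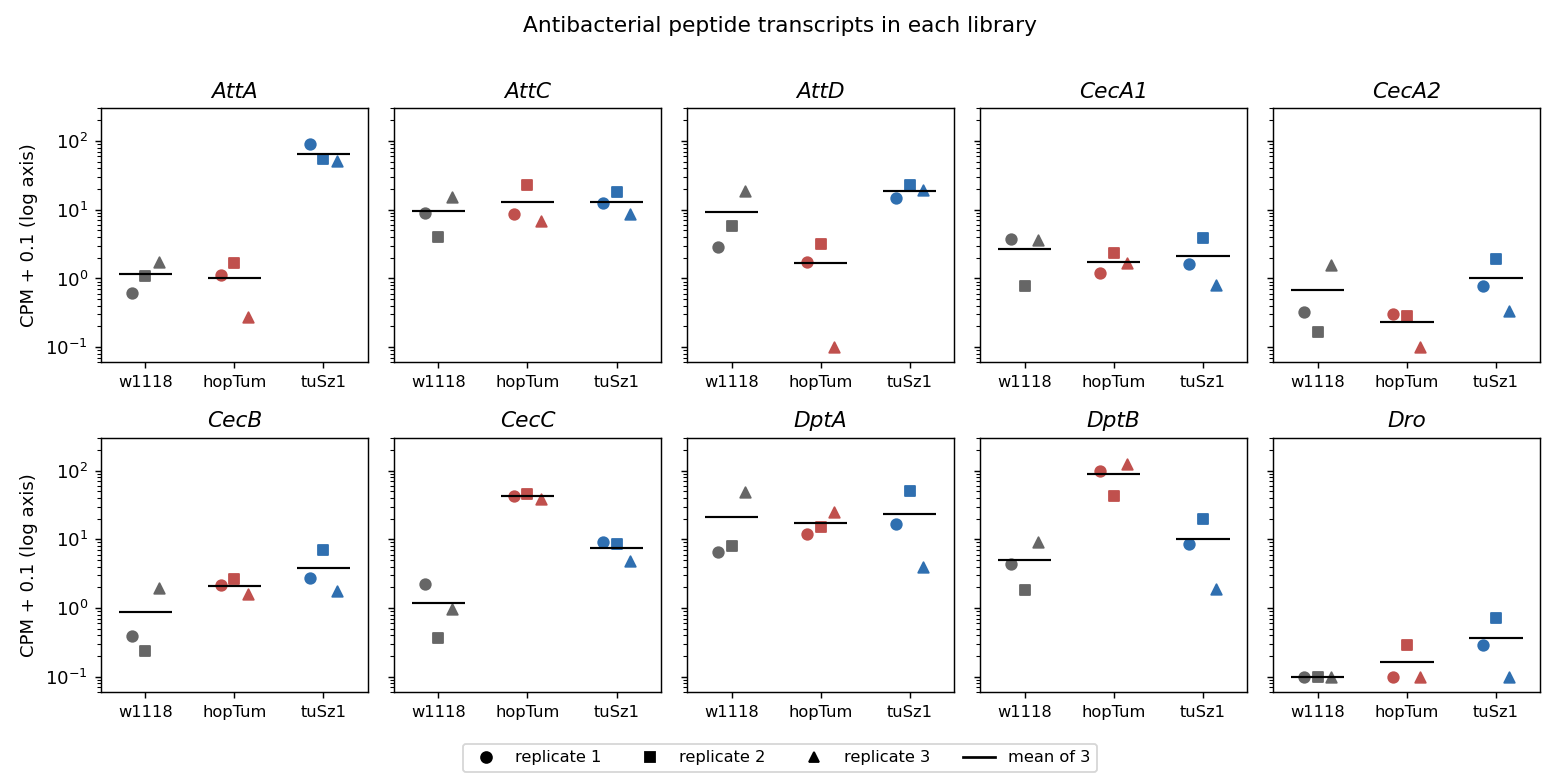
Level of each of the 10 genes in each library, as CPM plus 0.1 on a log axis, by genotype; symbols are replicates and black lines the means of 3 libraries. AttA stands high only in the 3 tuSz1 libraries, CecC and DptB are highest in the 3 hopTum libraries, and AttC, CecA1 and DptA overlap across all genotypes.

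The peptide genes did not move as one block: AttA was higher and CecC lower in tuSz1 than in hopTum. In tuSz1 against w1118, AttA and CecC rose and the other 6 tested genes did not pass the test, in a comparison where edgeR called 16.3% of all tested genes. In hopTum against w1118, CecC and DptB rose and the other 6 did not pass, beside 18.1% of all tested genes. CecC was the one gene called in both mutants, and these 2 comparisons share the w1118 libraries. The difference between the mutants passed the test for AttA and CecC but not for DptB.

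AttA, an Attacin active against Gram-negative bacteria, lies on chromosome 2R at 14747362 to 14748215 (dm6). It had 7, 15 and 23 counts in w1118 replicates 1 to 3 and 10, 17 and 2 in hopTum, against 954, 618 and 424 in tuSz1. On the CPM scale w1118 had 0.514, 0.999 and 1.66, hopTum 1.02, 1.6 and 0.175, and tuSz1 90.6, 54 and 50.5. Every tuSz1 library was far above all 6 others, while w1118 and hopTum overlapped. AttA rose in tuSz1 by a log2 difference of 5.93 against w1118 (SE 0.65, adjusted p = 0.000121, edgeR quasi-likelihood test) and 6.12 against hopTum (SE 0.66, adjusted p = 0.000277, edgeR), or 61.5 and 69.8 times on the means. hopTum and w1118 differed by -0.20 (SE 0.63, adjusted p = 0.856, edgeR). Without tuSz1 replicate 3 the difference from w1118 was 6.08, and with the glue genes as a covariate it was also 6.08.

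AttB, the near copy of AttA that starts 1.01 kb downstream of it, was listed at 0 in all 9 libraries and is not among the 10 genes. It has 2 listed transcripts of 788 and 879 bases, and the shorter holds no base of its own. Reads that fit both genes, or both AttB transcripts, could have been split or dropped in counting, so the AttA value is uncertain as that of a single gene. Among genes with 2 or more listed transcripts, 32.1% had no counts in any library, against 11.5% of genes with 1. The former held 5.99% of all counts. Shared reads could likewise be dropped for other such genes named here, among them Fbp1, atilla, Rel, Dredd, key, pirk, nub, Uev1A and PGRP-LB.

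The other Attacins showed no call in any comparison. AttC, whose precursor carries a further antibacterial peptide, was at 8.74, 3.93 and 15.5 CPM in w1118, 8.68, 23.2 and 6.75 in hopTum, and 12.3, 17.9 and 8.69 in tuSz1. The 3 genotypes overlapped fully, with log2 fold changes of 0.46 in hopTum (SE 0.57, adjusted p = 0.609, edgeR) and 0.47 in tuSz1 (SE 0.57, adjusted p = 0.646) against w1118, the latter -0.26 under total count scaling. AttC shares 53 exonic bases with CG4744 on the opposite strand, and the strand setting of the counting is not given in the sources used here.

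AttD, an Attacin without the usual signal peptide, was at 2.79, 5.79 and 18.8 CPM in w1118, 1.63, 3.11 and 0 in hopTum, and 14.6, 22.5 and 19.1 in tuSz1. Each tuSz1 library was above every hopTum library, while w1118 overlapped with both. Between tuSz1 and hopTum the log2 fold change was 3.57 (SE 1.02, adjusted p = 0.0549, edgeR), which did not pass but did in 6 of 16 alternative fits, among them those without w1118 replicate 1 or 3 or hopTum replicate 2 or 3 (adjusted p from 0.0371 to 0.0472). For AttD, hopTum against w1118 gave -2.53 (SE 0.99, adjusted p = 0.108, edgeR), which passed under total count scaling (-3.04, adjusted p = 0.0485).

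The Cecropin genes lie within 6065 bases on chromosome 3R, from 30210874 to 30216938 (dm6), in the order CecA1, CecA2, CecB and CecC. Of the 3 that could be tested, CecC was called. CecC, which sits 2.69 kb from CecB at the end of the cluster, had 29, 4 and 12 counts in w1118, 423, 491 and 436 in hopTum, and 95, 97 and 40 in tuSz1. On the CPM scale CecC was at 2.13, 0.266 and 0.867 in w1118, 43.2, 46.2 and 38.2 in hopTum, and 9.02, 8.48 and 4.76 in tuSz1. The genotypes did not overlap, and their order was w1118, tuSz1, hopTum. The summed level of 6 markers of lamellocytes, the blood cells that wall off foreign bodies, had the same order, with 20.1 to 24.2 CPM in w1118, 2518 to 2688 in tuSz1 and 15549 to 17514 in hopTum. Most of it was PPO3 and ItgaPS4, with atilla and Itgbn listed at 0 in all libraries. cher of the same list did not have this order, with means of 5.95, 3.32 and 5.56 CPM in w1118, tuSz1 and hopTum. The part of these cells in the CecC result was not tested.

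CecC rose 39.1 times on the means in hopTum (edgeR adjusted p = 0.00014, at 5.29 on the log2 scale, SE 0.62) and 6.82 times in tuSz1 (2.77, SE 0.57, adjusted p = 0.00672). Set against hopTum, tuSz1 had less CecC, at -2.51 on the log2 scale (SE 0.53, adjusted p = 0.0126, edgeR). Without tuSz1 replicate 3 the CecC difference of tuSz1 from w1118 was 3.01, and that from hopTum was -2.28 (adjusted p = 0.0309, edgeR). CecC was as even in hopTum as any of the 10 genes, with 1.21 times between its highest and lowest library there, but 8 times in w1118.

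CecB was at 0.294, 0.133 and 1.88 CPM in w1118, 2.04, 2.54 and 1.49 in hopTum, and 2.66, 6.99 and 1.67 in tuSz1. Replicate 3 of w1118 alone reached into the range of the mutants. Against w1118, CecB in tuSz1 had a log2 fold change of 2.29 (SE 0.86, edgeR adjusted p = 0.0913) and in hopTum one of 1.39 (SE 0.86, adjusted p = 0.288, edgeR). Neither passed, and with w1118 replicate 3 left out both did, at 4.10 (adjusted p = 0.0183, edgeR) and 3.19 (adjusted p = 0.0431).

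CecA1 was not called in any comparison and CecA2 could not be tested. CecA1 had 49, 10 and 49 counts in w1118, 11, 24 and 18 in hopTum, and 16, 43 and 6 in tuSz1. The CecA1 ranges overlapped in all 3 comparisons, with log2 fold changes between -0.65 and 0.28 and adjusted p from 0.577 to 0.852 (edgeR). CecA2 had 3, 1 and 20 counts in w1118, 2, 2 and 0 in hopTum, and 7, 21 and 2 in tuSz1. Over most libraries CecA2 was at or under the floor of 3 counts, and it did not enter the test. The Cecropin genes resemble each other in sequence, so reads could be assigned to the wrong copy or dropped.

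The Diptericins, glycine-rich peptides active against Gram-negative bacteria, are neighbours on chromosome 2R, 1.13 kb apart, between 18865765 and 18867895 (dm6). DptB had 58, 26 and 124 counts in w1118, 976, 459 and 1425 in hopTum, and 90, 228 and 15 in tuSz1. In CPM DptB was at 4.26, 1.73 and 8.96 in w1118, 99.6, 43.2 and 125 in hopTum, and 8.55, 19.9 and 1.79 in tuSz1. All 3 hopTum libraries were above all others, while tuSz1 overlapped with w1118. DptB rose 17.9 times on the means in hopTum (edgeR adjusted p = 0.0135, at 4.16 on the log2 scale, SE 0.90), and its difference in tuSz1 was 1.03 (SE 0.82, adjusted p = 0.463). Between the mutants DptB differed by -3.14 (SE 0.85, adjusted p = 0.0505, edgeR), which did not pass. It passed in 8 of 16 alternative fits, among them those without w1118 replicate 2 or 3, hopTum replicate 2 or tuSz1 replicate 2 (adjusted p from 0.0388 to 0.0443, edgeR).

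DptB shares 48 exonic bases with CG43109 on the opposite strand, and that gene moved with it. CG43109 averaged 4.04 ± 1.5 CPM in hopTum, 0.28 ± 0.243 in w1118 and 0.608 ± 0.505 in tuSz1, and its log2 fold change was 3.80 in hopTum (SE 0.90, adjusted p = 0.0136, edgeR). CG43109 was examined after its values were seen, and without the strand setting its reads and those of DptB cannot be told apart in the shared bases. Its level in hopTum was a small part of the 89.3 ± 41.9 CPM of DptB.

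DptA, the neighbour, was not called in any comparison. DptA was at 6.46, 7.99 and 49.6 CPM in w1118, 11.7, 15 and 24.9 in hopTum, and 16.7, 49.8 and 3.81 in tuSz1. Its highest library was 7.67 times its lowest within w1118 and 13.1 times within tuSz1, and the genotypes overlapped. The log2 fold changes of DptA were -0.31 in hopTum (SE 0.97, adjusted p = 0.853, edgeR) and 0.14 in tuSz1 (SE 0.96, adjusted p = 0.949) against w1118, the latter -0.53 under total count scaling.

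Dro lies 0.65 kb upstream of AttA, from 14745961 to 14746714 on chromosome 2R. It had 0 counts in all w1118 libraries, 0, 2 and 0 in hopTum, and 2, 7 and 0 in tuSz1. All of these reads were on 1 of its 2 listed transcripts, the other being at 0 throughout. In the annotation the shorter Dro transcript, of 355 bases, lies wholly inside the longer one of 754 bases. Dro is therefore given as listed near 0 and not as unexpressed.

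**Figure D2:**
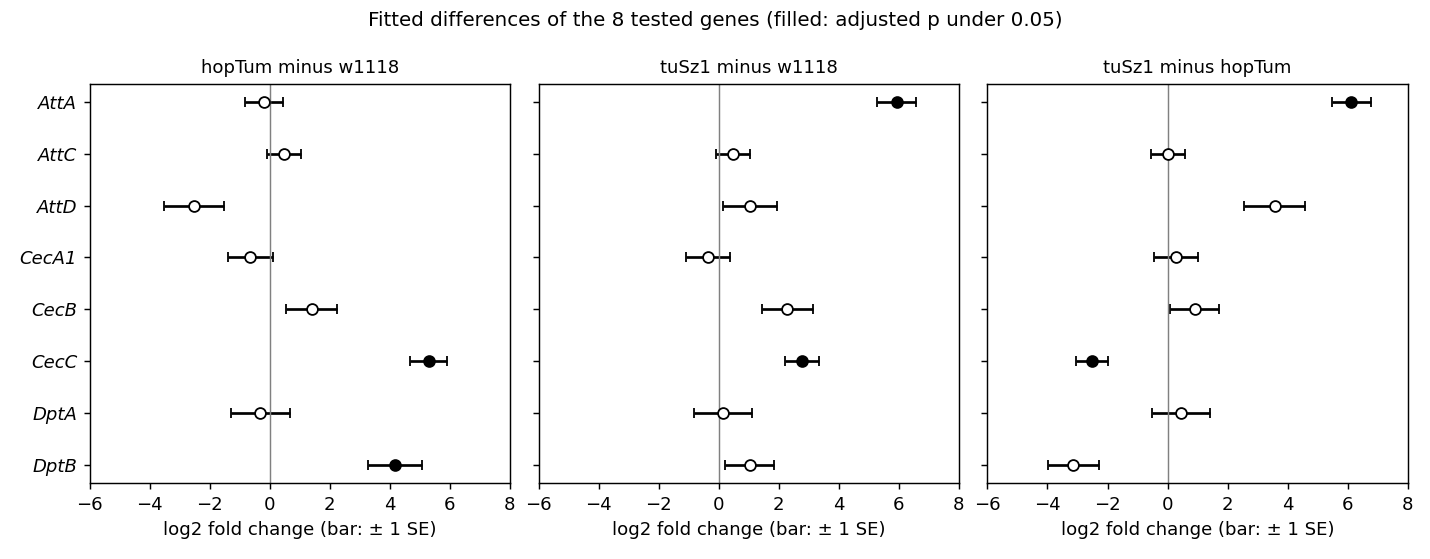
Log2 fold change of the 8 tested genes in each comparison, with bars of 1 SE on each side; filled points passed an adjusted p of 0.05 in edgeR. Filled points are CecC and DptB in hopTum minus w1118, and AttA and CecC in both comparisons of tuSz1, where CecC is positive against w1118 and negative against hopTum.

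Counted together, 2 of the 8 tested genes were called higher and 0 lower in hopTum against w1118, where edgeR called 18.1% of all 9106 tested genes, 11.5% higher and 6.65% lower. At an unadjusted p under 0.05 AttD was the 1 gene lower. In tuSz1 against w1118, 2 were called higher and 0 lower in edgeR, beside 16.3% of all genes, 9.98% higher and 6.33% lower, and 0 were lower at an unadjusted p under 0.05. DESeq2 also called 0 lower in these comparisons, while total count scaling called AttD lower in hopTum. In tuSz1 against hopTum, AttA was called higher and CecC lower, beside 9.66% of all genes, 5.52% higher and 4.14% lower. With 8 genes, these shares lie near the background, so the counts by themselves are no result about the peptides as a class.

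The libraries of both genotypes did not overlap for 2 of the 8 in hopTum against w1118, beside 39.1% of all tested genes, for 2 in tuSz1 against w1118, beside 38.6%, and for 4 in tuSz1 against hopTum, beside 29.1%. The 4 were AttA, AttD, CecC and DptB, with AttA and AttD higher in tuSz1 and CecC and DptB higher in hopTum. The median log2 fold change of the 8 was 0.13 in hopTum against w1118, where all tested genes had -0.05, and -0.32 under total count scaling, where all genes had -0.41. In tuSz1 against w1118 the median was 1.03 beside 0.08, and 0.30 beside -0.70 under total count scaling. Between the mutants it was 0.37 beside 0.03.

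**Figure D3:**
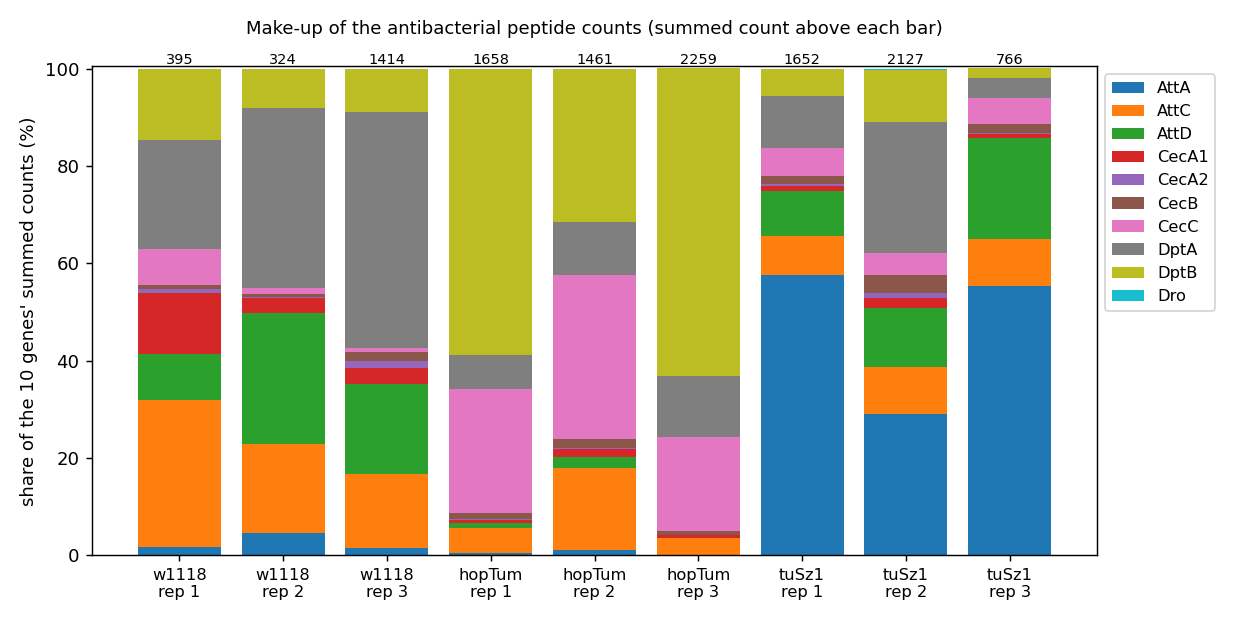
Share of each gene in the summed counts of the 10 genes, in percent, for each library, with the summed count above the bar. AttA holds 29.1 to 57.7% in tuSz1 and at most 4.63% elsewhere, while DptB and CecC together make up most of each hopTum bar.

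In each strain other genes made up most of the peptide reads. The 10 genes together were at 29, 21.6 and 102 CPM in w1118, 169, 137 and 198 in hopTum, and 157, 186 and 91.2 in tuSz1, so that hopTum was above w1118 in every library and tuSz1 was not. In w1118 the largest share was that of DptA, at 35.9% ± 13.2 (SD, n = 3) of the summed counts, followed by AttC at 21.2% ± 7.92 and AttD at 18.3% ± 8.62. In hopTum DptB held 51.1% ± 17.2 and CecC 26.1% ± 7.17. In tuSz1 AttA held 47.4% ± 15.9, AttD 14.1% ± 6.03 and DptA 13.9% ± 11.6. A share is a share of counts, and longer transcripts give more of them.

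Per kilobase of exon, the order of levels also changed with the strain. In w1118 DptA led at 43 ± 49.3 CPM per kb, ahead of AttD at 12.3 ± 11.5, DptB at 11.1 ± 8.17 and AttC at 10.4 ± 6.44, and these 4 neighbours overlapped. In hopTum DptB came first at 199 ± 93.2 CPM per kb and CecC second at 110 ± 10.4, with overlapping libraries, followed by DptA at 34.7 ± 13.8. In tuSz1 AttA led at 82.3 ± 28.1 CPM per kb, ahead of DptA at 47.3 ± 47.8, whose highest library, at 100, reached into the AttA range of 63.9 to 115. AttA was ninth of 10 in w1118, at 1.34 ± 0.73 CPM per kb, and first in tuSz1. CecC was sixth in w1118, at 2.82 ± 2.46 CPM per kb.

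**Figure D4:**
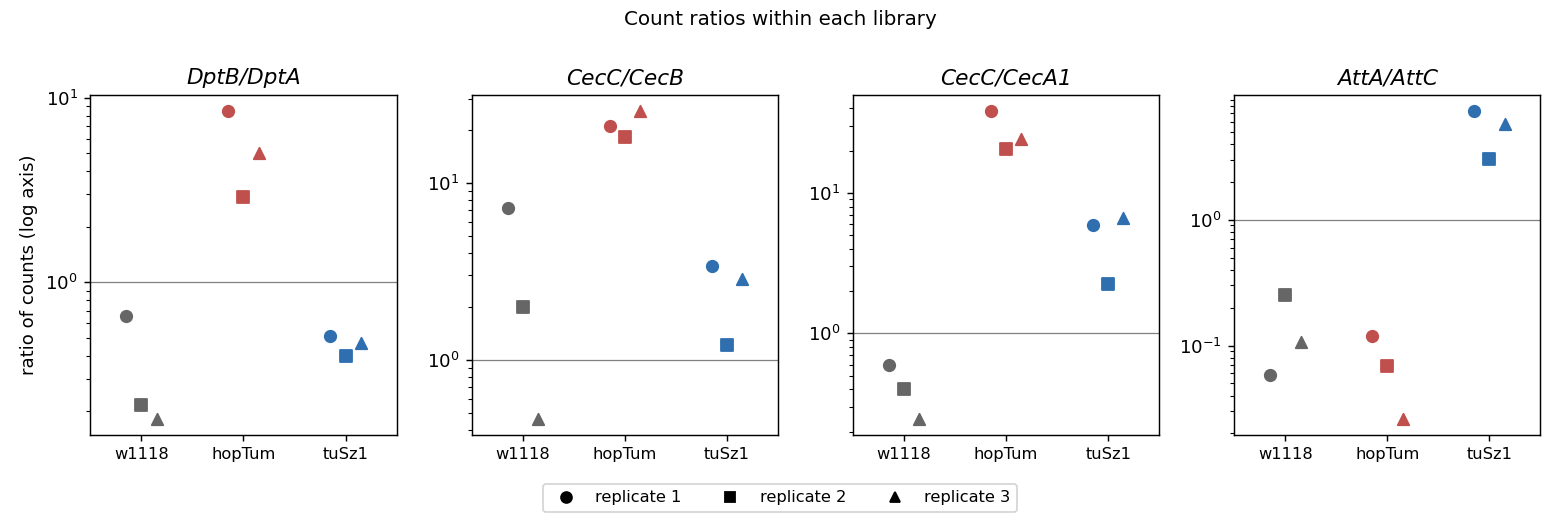
Ratio of the counts of 2 genes within each library, on log axes, by genotype, with a grey line at a ratio of 1. DptB exceeds DptA in the 3 hopTum libraries and is below it in the 6 others, and AttA exceeds AttC in the 3 tuSz1 libraries alone.

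Ratios of counts within a library do not depend on how libraries are scaled. The 4 pairs below were chosen after their values were seen and carry no test. The DptB to DptA ratio was 0.659, 0.217 and 0.181 in w1118 and 0.511, 0.4 and 0.469 in tuSz1, but 8.49, 2.89 and 5.02 in hopTum. Every hopTum library thus had more DptB than DptA reads, and every other library fewer. Within tuSz1 this ratio was nearly constant while DptB itself spanned 11.2 times.

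The CecC to CecA1 ratio was 0.592, 0.4 and 0.245 in w1118, 38.5, 20.5 and 24.2 in hopTum, and 5.94, 2.26 and 6.67 in tuSz1. The genotypes did not overlap. The CecC to CecB ratio was 21.1, 18.2 and 25.6 in hopTum, above 7.25, 2 and 0.462 in w1118 and 3.39, 1.21 and 2.86 in tuSz1. The w1118 and tuSz1 ranges of that ratio overlapped. The AttA to AttC ratio was 7.34, 3.01 and 5.81 in tuSz1 and at most 0.254 in the other 6 libraries.

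**Figure D5:**
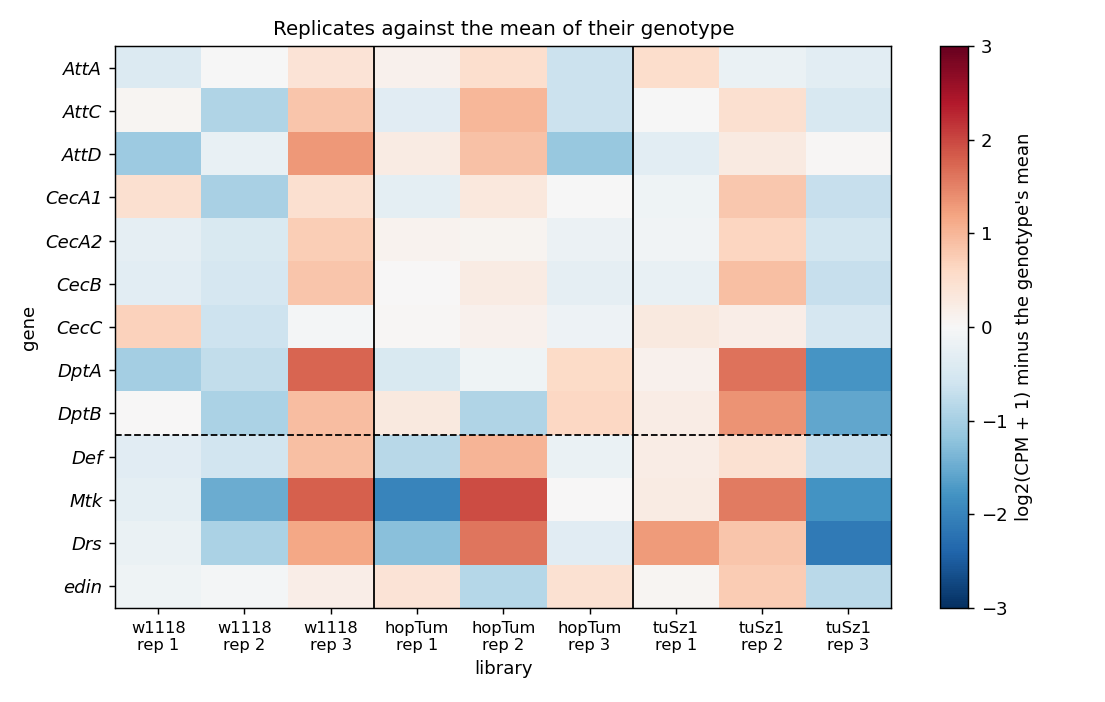
Difference of each library's log2(CPM + 1) from the mean of its genotype, by gene (rows) and library (columns); red is above and blue below the mean, and the dashed line parts 9 of the 10 genes from 4 other induced immune genes. w1118 replicate 3 and tuSz1 replicate 2 are mostly red, and tuSz1 replicate 3 is mostly blue.

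Within a genotype, many of the peptide genes did rise and fall together from library to library. Of the 9 genes other than Dro, 7 had their highest w1118 value in replicate 3, where 35.9% of all tested genes did, the exceptions being CecA1 and CecC. The 9 include CecA2, which had few reads. In tuSz1, 7 of the 9 were highest in replicate 2, beside 31.5% of all genes, and 8 were lowest in replicate 3, beside 37% of all genes. In hopTum, 6 were highest in replicate 2, beside 33% of all genes, and 6 were lowest in replicate 3, beside 27.8%. Those lowest in replicate 3 include CecA2, with 2, 2 and 0 counts in hopTum, and CecC, which spanned 1.21 times there. DptA and DptB went against that order in hopTum, with their highest values in replicate 3.

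In w1118 and tuSz1 the same libraries stood out for 4 genes outside the set that infection is known to induce: Def, Mtk and Drs, which encode antimicrobial peptides, and edin, chosen from the listed genes after values were seen. All 4 were highest in w1118 replicate 3, beside 35.9% of all tested genes, and lowest in tuSz1 replicate 3, beside 37%. In hopTum 3 of the 4 were highest in replicate 2, beside 33% of all tested genes. But 0 were lowest in replicate 3, beside 27.8%, and 3 were lowest in replicate 1, beside 33.1%. Listericin, PGRP-SD and PGRP-SB1, tested immune genes not among the 4, were also highest in w1118 replicate 3. Listericin and PGRP-SB1 were lowest in replicate 3 in hopTum (13.8, 19.2 and 8.51 CPM, and 9.49, 13.6 and 2.1) and in tuSz1. PGRP-SD was lowest in replicate 1 in hopTum (18, 59.7 and 24.8 CPM) and in tuSz1 (96.1, 122 and 110). Mtk was at 11.9, 4.66 and 53.9 CPM in w1118 and 4.08, 11.5 and 0.238 in tuSz1. In tuSz1 replicate 3, the library with almost no glue transcripts, AttA at 50.5 CPM and AttD at 19.1 CPM stayed near their fellow replicates, while DptA at 3.81 and DptB at 1.79 were lowest. These are descriptions of single libraries, and the part of larval stage in them was not tested.

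Genes of the IMD pathway itself were read from 3 lists. Of 14 pathway components, 9 were tested. Against w1118, 2 were called in hopTum and 1 in tuSz1, all higher, and their medians were 0.20 and 0.15 beside -0.05 and 0.08 for all tested genes. Of all tested genes 18.1% and 16.3% were called, so these counts lie near the background. At an unadjusted p under 0.05 (edgeR), hopTum also had more Tak1, with 190 ± 36 CPM beside 115 ± 7.57 in w1118. Tak1 did not pass after adjustment (adjusted p = 0.0509, edgeR). At the same unadjusted level, PGRP-LC was lower in hopTum and Rel in tuSz1. Fadd, the adaptor that joins imd to the caspase Dredd, rose in hopTum to 53.7 ± 7.69 CPM from 23.1 ± 4.79 (edgeR adjusted p = 0.00915, at 1.22 on the log2 scale, SE 0.27) and was at 25.4 ± 2.43 in tuSz1, lower than in hopTum (-1.08, SE 0.27, adjusted p = 0.0254). The Fadd call in hopTum was lost under total count scaling (0.83, adjusted p = 0.0897, edgeR) and without w1118 replicate 2 (1.11, adjusted p = 0.0549). Its call between the mutants was lost with the replicate block (adjusted p = 0.0696, edgeR) and without replicate 1 or 2 of hopTum or of tuSz1 (adjusted p from 0.057 to 0.104). Uev1A, part of a ubiquitin-conjugating enzyme of the pathway, rose in both mutants (adjusted p = 0.00385 in hopTum and 0.00211 in tuSz1, edgeR). The control had 0.954 ± 0.456 CPM of Uev1A, hopTum 8.82 ± 5.91 and tuSz1 11.5 ± 2.56. Rel, which encodes Relish, was low, averaging 0.756 ± 0.0859 CPM in tuSz1, 1.87 ± 0.36 in hopTum and 2.25 ± 0.454 in w1118, and did not pass (adjusted p = 0.748 and 0.0642, edgeR). Dredd and key were listed at 0 in all libraries. Rel and Dredd have 4 listed transcripts and key has 2, so these levels are given as listed, since shared reads could have been dropped.

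Of 13 genes that restrain the pathway, 10 were tested. In tuSz1 against w1118, 5 were called higher and 2 lower, with a median of 0.49, beside 16.3% of all tested genes called. In hopTum 0 were called higher, and 0 at an unadjusted p under 0.05 (edgeR), while 2 were called lower, with a median of -0.15, beside 18.1% of all tested genes called. PGRP-SC1a and PGRP-SC1b lay just over that limit in hopTum, at 2.03 and 1.83 on the log2 scale (unadjusted p = 0.0503 and 0.0522, edgeR). PGRP-SC1a was at 96.4, 439 and 36.3 CPM in hopTum. Neither gene passed between the mutants (adjusted p = 0.291 and 0.162, edgeR), so their rise is not shown to be particular to tuSz1. Between the mutants PGRP-LB and PGRP-SC2 were called higher in tuSz1 (adjusted p = 0.0136 and 0.0286, edgeR), the PGRP-SC2 call being lost without any 1 of the hopTum libraries or tuSz1 replicate 1 (adjusted p from 0.0507 to 0.111). The share of all tested genes called there was 9.66%. The 5 called higher in tuSz1 against w1118 were members of the peptidoglycan recognition protein (PGRP) family. PGRP-LB, an enzyme that breaks down peptidoglycan and is itself induced by the pathway, was at 13.4, 8.65 and 3.98 CPM in w1118, 8.37, 5.74 and 7.63 in hopTum, and 25.4, 24.9 and 46.3 in tuSz1. Every tuSz1 library was above all others, as for AttA (edgeR adjusted p = 0.0159, at 1.89 on the log2 scale against w1118, SE 0.46). That call was lost without w1118 replicate 2 (adjusted p = 0.0637, edgeR), without w1118 replicate 3 (adjusted p = 0.0517) and under total count scaling (1.04, adjusted p = 0.115).

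PGRP-LF, a receptor that blocks signalling, rose in tuSz1 with a log2 fold change of 1.50 (SE 0.41, edgeR adjusted p = 0.0273), PGRP-SC2 with 1.34 (SE 0.40, adjusted p = 0.0388) and PGRP-SC1b with 3.72 (SE 0.86, adjusted p = 0.0126). PGRP-SC1a rose with 3.71 (SE 0.96, adjusted p = 0.0317, edgeR), and it resembles PGRP-SC1b so closely that their reads may be shared. Of 16 alternative fits the calls held in 7 for PGRP-LF, 5 for PGRP-SC2, 8 for PGRP-SC1a and 15 for PGRP-SC1b. Leaving out any 1 of the w1118 libraries lost PGRP-LF and PGRP-SC1a, with adjusted p from 0.0577 to 0.11 (edgeR). Without tuSz1 replicate 3 the log2 fold change was 0.99 for PGRP-LF (adjusted p = 0.13, edgeR), 2.86 for PGRP-SC1a (adjusted p = 0.116) and 1.31 for PGRP-SC2 (adjusted p = 0.07). PGRP-SC1a was also lost without tuSz1 replicate 2 (adjusted p = 0.055, edgeR), and PGRP-SC1b without w1118 replicate 3 (adjusted p = 0.0542). PGRP-SC2 was lost without w1118 replicate 1 or 3, hopTum replicate 1, or tuSz1 replicate 1 or 2, with adjusted p from 0.0522 to 0.116 (edgeR). The PGRP-SC genes are known for expression in the gut, and the 7 midgut markers summed to 16002 to 25970 CPM in tuSz1, 4784 to 8680 in w1118 and 3354 to 5775 in hopTum. Most of that sum was Jon65Aiii, with 17086 CPM on average in tuSz1, while Jon99Ci of the same list fell in tuSz1 (adjusted p = 0.0313, edgeR) and Amy-p, Jon65Ai and betaTry were near 0. The part of gut content in these calls was not tested.

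The lower genes of that list were the same pair in both mutants. pirk, which removes PGRP-LC from the cell surface and is known as an IMD target, was at 4.92, 3.6 and 4.63 CPM in w1118, 0, 0.565 and 0.175 in hopTum, and 0, 0.437 and 0 in tuSz1. Its log2 fold change was -4.08 in hopTum (SE 1.02, adjusted p = 0.018, edgeR) and -4.70 in tuSz1 (SE 1.08, adjusted p = 0.0123). The pirk call in hopTum was lost in 3 of 16 alternative fits, those without w1118 replicate 3 (adjusted p = 0.0552, edgeR), without hopTum replicate 1 (adjusted p = 0.0541) and with the glue covariate (-3.34, adjusted p = 0.682). nub, a product of which is known to hold down peptide genes in the gut, fell in both mutants. It was at 6.87 ± 2.89 CPM in hopTum and 5.47 ± 0.983 in tuSz1 against 17.6 ± 5 in w1118 (adjusted p = 0.0411 and 0.0178, edgeR). The counts of nub are summed over 3 listed transcripts, so which product fell is not shown. The hopTum call of nub held in 8 of 16 alternative fits and was lost without any 1 of 7 libraries, the exceptions being hopTum replicate 3 and tuSz1 replicate 3 (adjusted p from 0.0582 to 0.124, edgeR). Its tuSz1 call held in 12 and was lost without replicate 1 or 2 of w1118 or of tuSz1 (adjusted p from 0.0524 to 0.0693).

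Of 11 other antimicrobial or IMD-induced genes, 9 had an entry and 7 were tested. Against w1118, 1 was called higher and 1 lower in hopTum and 1 lower in tuSz1, with medians of -0.04 and 0.17, beside 18.1% and 16.3% of all tested genes called. In tuSz1 0 were called higher, and edin alone was higher at an unadjusted p under 0.05 (edgeR). Between the mutants 2 were higher in tuSz1, Listericin and the receptor gene PGRP-SD, and Drs was lower. That Drs call held in 4 of 16 alternative fits, and without hopTum replicate 2 its adjusted p was 0.0911 (edgeR). The PGRP-SD call held in 12 and was lost without hopTum replicate 1 or 3 or tuSz1 replicate 2 (adjusted p from 0.0514 to 0.0712). Def, Mtk and edin did not pass in any comparison. Drs, the antifungal peptide Drosomycin, was at 38, 21.8 and 97.9 CPM in w1118, 371, 2696 and 699 in hopTum, and 97.5, 71.5 and 8.45 in tuSz1, and rose in hopTum (edgeR adjusted p = 0.0287, at 4.58 on the log2 scale, SE 1.15). The Drs call held in 8 of 16 alternative fits, and leaving out a single library, w1118 replicate 1 or 2, hopTum replicate 2 or 3 or tuSz1 replicate 2, lost it (adjusted p from 0.0541 to 0.0947, edgeR). Listericin, an antibacterial peptide gene known to respond to JAK/STAT signalling, went the other way from CecC and DptB. It was at 491, 355 and 647 CPM in w1118, 13.8, 19.2 and 8.51 in hopTum, and 128, 187 and 44.4 in tuSz1. The genotypes did not overlap. Listericin fell by 5.17 on the log2 scale in hopTum (SE 0.55, adjusted p = 8.06e-05, edgeR) and by 2.05 in tuSz1 (SE 0.48, adjusted p = 0.0135), the latter lost without w1118 replicate 3 (-1.82, adjusted p = 0.0542).

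For AttA, CecC and DptB, the 3 genes whose levels followed each most closely over the 9 libraries did not include one another. Likeness was Pearson's r of log2(CPM + 1) over 5979 tested genes averaging 5 CPM or more, given as a description since the libraries fall into 3 genotypes. AttA was most like CG43773 (r = 0.992), CG33774 (r = 0.983) and Lip3, a lipase gene (r = 0.982). CG43773 averaged 94.8 ± 7.59 CPM in tuSz1, with w1118 at 3.06 ± 1.7 and hopTum at 3.7 ± 1.79.

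CecC was most like RhoGAP18B (r = 0.988), CG30098 (r = 0.979) and CG12655 (r = 0.977). RhoGAP18B, which encodes a regulator of small GTPases, averaged 39.1 ± 7.04 CPM in w1118, with 119 ± 10.7 in hopTum and 68.3 ± 7.86 in tuSz1. DptB was most like GNBP-like3 (r = 0.961), CG18636 (r = 0.951) and Shc, a signalling adaptor gene (r = 0.948). GNBP-like3, named for its likeness to a family of microbe-binding proteins, averaged 26.9 ± 10.1 CPM in hopTum against 1.81 ± 0.631 in w1118 and 2.02 ± 1.15 in tuSz1. CecC had r = 0.869 with DptB and r = -0.06 with AttA, and AttA had r = 0.757 with AttD and 0.04 with DptA. Of the 5979 genes, CecC ranked 70 in likeness to DptB and DptB ranked 355 in likeness to CecC. AttD ranked 427 in likeness to AttA.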

How the data were processed

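The deposited files hold raw read counts per RefSeq transcript, 1 file per library with 34111 entries. FastQC 0.11.8, HISAT2 2.1.0, featureCounts 1.6.3 and the build dm6 are named per the submitters' processing notes, while their settings for strand, overlap and multiple matches are not given in the sources used here.

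Counts were summed per gene symbol through a RefSeq gene table of Release 6, the dm6 assembly. Of the entries, 33766 matched with their version, 146 without it and 199 not, the last with 0.421% of counts. Positions agree between that table and the Ensembl annotation used for exons and strands.

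The test was edgeR 4.0.16 (R 4.3.3) with TMM factors, its default filter and a quasi-likelihood fit with robust settings on all 9 libraries, Benjamini-Hochberg adjusted over 9106 genes per comparison, at a threshold of 0.05. The code was also run on counts simulated from the w1118 means. These hold no outlying library, unlike the data, so that run does not vouch for the calls here. SE was obtained from each fold change and its F statistic, as the size of the first over the root of the second. Groups came from the titles, and alternatives included DESeq2 1.42.0. Members, lists and named genes were chosen with earlier results of these data known: all 10 genes, AttB, hop, listed genes that were called, and the 3 genes most like each called member. Others are marked as named later. Tables used Python 3.11.15.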

Additional observations from a re-analysis of the deposited data

How the results depend on the processing

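The calls of AttA and CecC in tuSz1, and of CecC and DptB in hopTum, held in all 16 alternative fits of their comparisons with w1118, as did those of AttA and CecC between the mutants. With AttD, CecB and DptB crossing the threshold, the number of the 10 genes called ran from 2 to 3 in either mutant against w1118 when 1 replicate was left out, and from 2 to 4 between the mutants, where total count scaling and the DESeq2 Wald test each gave 4. In the latter comparison the 4, as without w1118 replicate 3 and without hopTum replicate 2, were AttA, AttD, CecC and DptB. Under total count scaling the all-gene median shifted by -0.36 in hopTum and -0.77 in tuSz1 against w1118, and by -0.42 between the mutants; the share of called genes that were higher went from 63.3 to 37.5%, 61.2 to 19.8% and 57.2 to 27.6%.

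No called gene changed sign; genes with small differences did. In hopTum against w1118, DptA was at 0.21 with the glue covariate, and leaving out a replicate gave -0.85 to 0.30 for AttA, -0.74 to 1.25 for DptA and -0.28 to 1.03 for AttC. In tuSz1 against w1118, total count scaling gave -0.26 for AttC and -0.53 for DptA, the fit of 6 libraries gave -0.0028 for DptA, and leaving out a replicate gave -1.05 to 1.70 for DptA and -1.19 to 0.03 for CecA1. Between the mutants, AttC was at -0.04 with DESeq2 size factors, the DESeq2 Wald test and 6 libraries, -0.26 with total counts and -0.02 with no filter, and CecA1 was at -0.02 with total counts. Leaving out a replicate there gave -0.37 to 0.75 for AttC, -0.55 to 0.68 for CecA1 and -0.74 to 0.95 for DptA. The cause was not tested.

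With the replicate block, 2 genes were called in each comparison, the same as without it; AttA in tuSz1 against w1118 was at 5.87. Same-numbered libraries did not vary together: their deviations from the genotype means had a mean correlation of -0.103 over 9 pairs, 3 of them above 0.1. CecA2 and Dro are limited by low counts, and for Dro reads shared by its 2 transcripts could have been dropped in counting. With no filter CecA2 and Dro had adjusted p from 0.26 to 0.837 and from 0.188 to 0.598 (edgeR). The fits of IMD genes under these alternatives were added after the data were seen.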
